A study of Homo sapiens with 80 samples.

Results

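The comparison described here is the first step of a low purity cardiomyocyte differentiation: day 2 against day 0 in WTC11, a human induced pluripotent stem cell line. It used 8 of the 80 sequenced samples, 4 wells a day, and took every gene with at least 1 TPM, transcript abundance scaled for gene length and library total, in 3 or more of these wells. That rule kept 19318 of the 43388 genes in the deposited TPM table. All 8 wells came from 1 differentiation of WTC11 at passage 69, which the labels class as low purity from the cardiac troponin T-positive cells counted at its end by flow cytometry. Cells were plated as single cells on Matrigel, and on day 0 the GSK3 inhibitor CHIR99021 was given in RPMI medium with B27 lacking insulin. Day 2 is the step at which IWP2, a blocker of WNT secretion, was added, and the labels do not say whether a well was lysed before or after the addition on either day. The same 2 days of a high purity differentiation of WTC11, at passage 52 and with 4 wells a day under the same protocol, served for comparison. The wells are well replicates of 1 differentiation each, so the p-values below measure only the spread between wells, and purity class, passage and differentiation cannot be told apart.

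CHIR99021 blocks the kinase that marks β-catenin for destruction, so β-catenin accumulates and acts with TCF and LEF proteins on WNT target genes. In pluripotent cells this drives a state like the primitive streak of the embryo, in which T-box and homeobox factors appear, the pluripotency network recedes and cells loosen their epithelial contacts. WNT signalling also switches on its own inhibitors, and mesoderm formed under NODAL, BMP and FGF signals is later allotted to heart, somite, endoderm or other fates.

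Recovered read totals were 6579715 to 11059737 in the day 0 wells and 6841508 to 7732058 in the day 2 wells, which did not differ beyond the spread (two-sided exact permutation test, p = 0.429, n = 4 and 4). The number of genes at 1 TPM or more was 16566 ± 202 (SD) on day 0 and 18578 ± 119 on day 2, with no overlap (exact permutation p = 0.0286, the smallest that 4 against 4 allows). The share of TPM in RN7SK, a small nuclear RNA, was 1.85% ± 0.17 (SD, n = 4) on day 0 and 6.53% ± 0.29 on day 2, and that of the mitochondrial ribosomal RNA RNR2 was 22.6% ± 0.19 and 20.3% ± 0.75. Pearson correlations of log2 values over genes were 0.968 to 0.975 between day 0 wells, 0.959 to 0.961 between day 2 wells and 0.844 to 0.850 between days. How these library shares bear on the changes below was not tested; the count of calls under other scalings is in the closing section.

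Of the 19318 genes, 4351 (22.5%) passed limma's test on log2(TPM + 1) at an adjusted p under 0.05 and a change of at least 1 on the log2 scale. Of these, 2855 genes (14.8%) were higher and 1496 (7.74%) lower on day 2. Counts called in the gene lists below are to be read beside these shares of all genes. In 58.9% of all genes tested the 4 wells of one day lay wholly above the 4 of the other (day 2 above in 34.2%, below in 24.7%), and the same held for 4137 of the 4351 called. The median change over all genes was 0.062 on the log2 scale. Without the fold threshold 12516 genes passed. Changes on this scale understate low genes, because 1 TPM was added before the log. In every list below, a gene that reached 1 TPM in fewer than 3 day 0 wells passed the filter only with day 2 wells. A fall could hardly be called for such a gene. Of the 4342 called genes with recovered reads, 499 had 10 reads or fewer in every well.

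**Figure D1:**
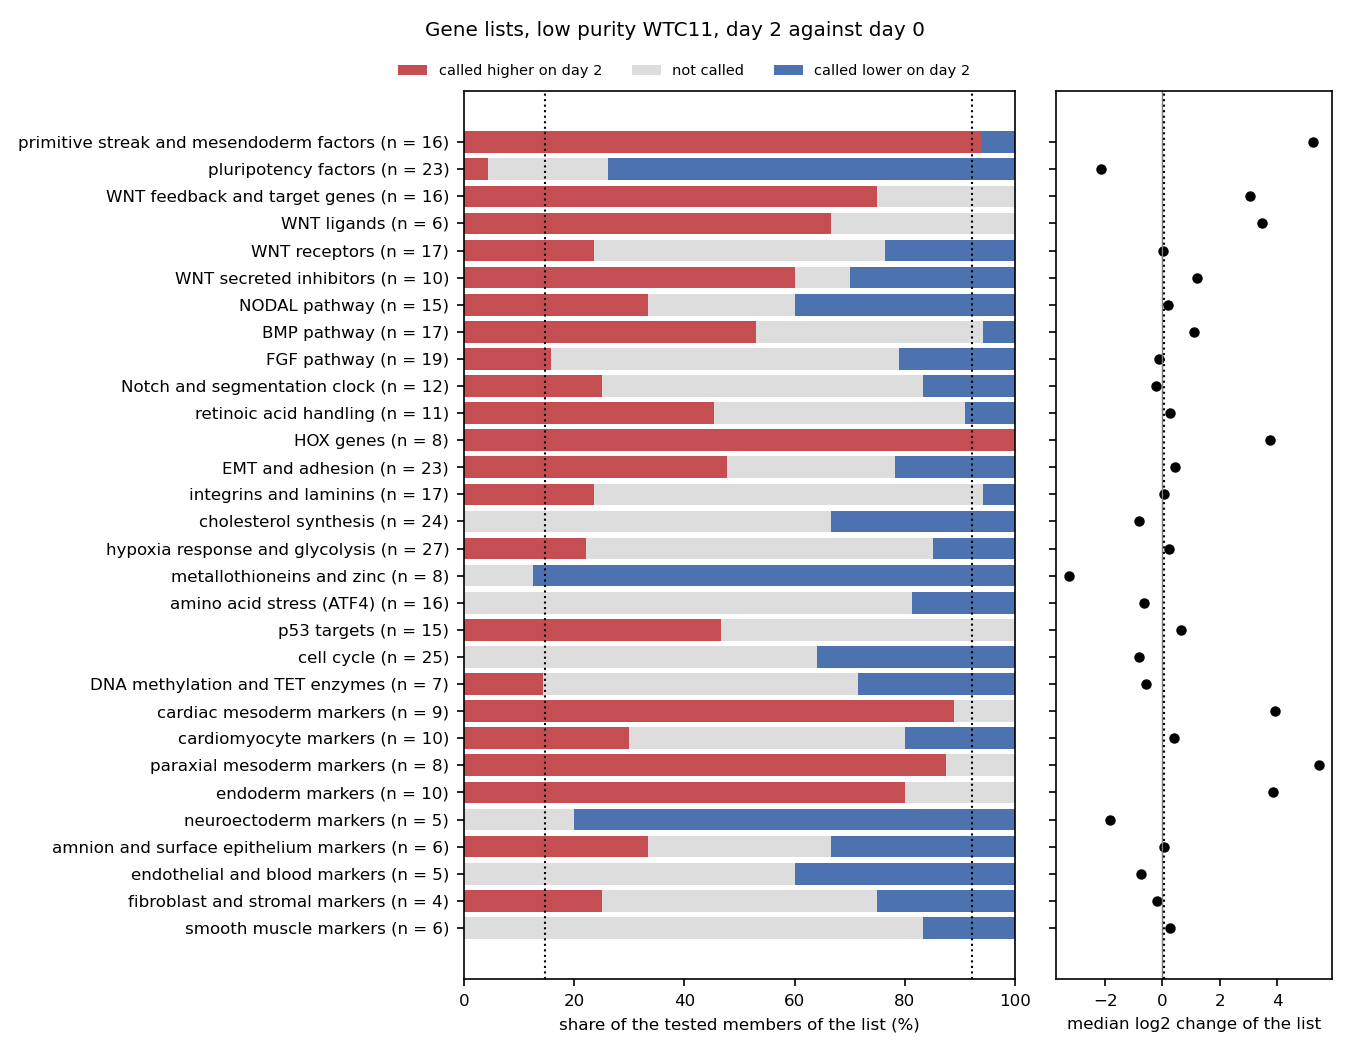
Left, the share of tested members of each gene list called higher (red), not called (grey) or called lower (blue) on day 2; the dotted lines stand at the shares for all genes, 14.8% higher and 7.74% lower. Right, the median log2 change of each list, with a dotted line at the median of all genes, 0.062. The paraxial and streak lists sit farthest right, followed by cardiac mesoderm, endoderm and HOX, and metallothioneins sit farthest left.

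The WNT target and feedback genes rose together: 12 of the 16 tested were called higher and 0 lower, with a median log2 change of 3.04. Of these 12, all but AXIN2, NKD1 and TCF7 passed the filter only with day 2 wells, so a fall could hardly be called for them. The 3 promoters printed here hold sequence of the kind to which TCF and LEF proteins are known to bind. They are the 250 bases before the RefSeq start (GRCh38.p14, forward strand) of SP5 at chr2:170715087-170715336, MIXL1 at chr1:226223414-226223663 and DKK1 at chr10:52314031-52314280, where capitals mark CTTTGAT or CTTTGAA on either strand.
SP5: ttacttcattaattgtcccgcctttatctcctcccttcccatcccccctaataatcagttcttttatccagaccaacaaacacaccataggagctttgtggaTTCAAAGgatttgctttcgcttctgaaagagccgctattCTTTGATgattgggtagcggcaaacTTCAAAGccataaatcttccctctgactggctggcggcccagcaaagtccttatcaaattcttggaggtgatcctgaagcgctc
MIXL1: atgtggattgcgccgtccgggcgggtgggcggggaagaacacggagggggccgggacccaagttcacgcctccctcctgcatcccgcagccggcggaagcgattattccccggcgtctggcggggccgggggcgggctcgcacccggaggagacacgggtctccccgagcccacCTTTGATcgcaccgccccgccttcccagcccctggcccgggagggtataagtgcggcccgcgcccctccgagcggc
DKK1: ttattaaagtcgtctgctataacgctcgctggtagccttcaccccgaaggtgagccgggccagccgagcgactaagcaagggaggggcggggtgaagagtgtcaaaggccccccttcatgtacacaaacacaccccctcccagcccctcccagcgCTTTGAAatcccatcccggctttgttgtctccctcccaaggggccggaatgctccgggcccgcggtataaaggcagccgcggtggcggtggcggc

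SP5 held 3 matches, and MIXL1 and DKK1 held 1 each. These letters occurred in 7.30% of the 2452 promoter windows of genes called higher, in 3.79% of those of genes called lower and in 4.08% of those of genes tested and not called; over all 35116 windows of that length the share was 5.94%. In the WNT target list 2 of 11 windows (8 genes with a window) held a match, and in the primitive streak list 6 of 14 (13 genes). A match describes letters in a window and is neither a binding site nor a cause.

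SP5, a zinc finger factor and direct WNT target, read 0, 0, 0 and 0.303 TPM in the day 0 wells and 334, 307, 312 and 331 TPM in the day 2 wells. The summed reads gave a ratio of 3799 (95% counting interval 1300 to 18425), with no overlap between days. DKK1, which encodes a secreted WNT inhibitor that binds the co-receptor LRP6, read 0.151, 0, 0.247 and 0.174 TPM and then 912, 897, 847 and 948 TPM, a ratio of 6188 (2117 to 30009). Every day 2 well held more DKK1 than any day 0 well by a wide margin. DKK4, its paralog, read 0.314, 0, 0 and 0.603 TPM and then 1055, 891, 914 and 1002 TPM (log2 change 9.60 ± 0.15 SE, adjusted p = 5.1e-10), the largest change among the named genes on this scale, though not as a ratio of TPM.

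Negative feedback regulators with some expression on day 0 are given as changes of log2(TPM + 1), which understate the fold of the low ones. AXIN2, a scaffold of the β-catenin destruction complex, read 18.6, 20.5, 19.9 and 18.3 TPM on day 0 and 128, 129, 127 and 134 TPM on day 2 (log2 change 2.60 ± 0.05 SE, adjusted p = 1.2e-09). NKD1, an inhibitor of Dishevelled, rose by 5.65 ± 0.08, and RNF43, a ligase that removes Frizzled receptors, by 3.31 ± 0.18. The nuclear effectors moved as well: LEF1 read 0.066, 0.210, 0.108 and 0 TPM on day 0 and 141, 138, 125 and 141 TPM on day 2, and TCF7 rose by 2.64 ± 0.09. TNFRSF19 rose by 4.69 ± 0.12. NOTUM, an enzyme that inactivates WNT proteins, reached only 4.41 to 6.43 TPM from a single detected value of 0.20 TPM, a ratio of 146 (25.7 to 5797).

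Among ligands, 4 of the 6 tested were called higher and 0 lower (median 3.46, or 4.28 with WNT3A set at its bound). All 6 passed the filter only with day 2 wells, so a fall could hardly be called. WNT5A, a ligand of the β-catenin-independent branch, read 0.939, 1.38, 1.18 and 0.687 TPM on day 0 and 138, 129.6, 122 and 139 TPM on day 2 (log2 change 5.97 ± 0.11 SE, adjusted p = 1.1e-09). WNT5B rose by 5.11 ± 0.09 and WNT8A, a ligand of the gastrulating embryo, by 4.13 ± 0.14. WNT3A, a streak ligand with no reads on day 0, read 5.11 to 6.94 TPM on day 2, at least 21.5-fold over a floor of 3 reads per library. The other 13 ligands of the list were below the filter.

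Receptors did not move one way: 4 of 17 were called higher and 4 lower, with a median of 0.03. FZD5, a Frizzled receptor, read 70.4, 66.1, 66.5 and 69.8 TPM on day 0 and 2.61, 2.44, 2.74 and 1.79 TPM on day 2 (log2 change -4.43 ± 0.10 SE, adjusted p = 3.0e-09). FZD7, which was higher than FZD5 on day 0, read 279, 258, 263 and 269 TPM and then 221, 221, 217 and 217 TPM. FZD10 rose from at most 0.191 TPM to 13.0 to 18.8 TPM. The orphan kinase receptors, which bind WNT5A, crossed: ROR1 fell by 3.14 ± 0.09 and ROR2 rose by 3.63 ± 0.10. So did the R-spondin receptors, LGR4 falling by 1.54 ± 0.05 while LGR5 went from at most 0.0909 TPM to 56.6 to 66.1 TPM, a ratio of 1148 (392 to 5569). RSPO3, an R-spondin that amplifies WNT signals through these receptors, read 0.0502, 0, 0 and 0 TPM and then 203, 189.7, 192 and 206 TPM.

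Secreted inhibitors split in the same manner, with 6 of 10 called higher and 3 lower. DKK1, DKK4 and NOTUM are among the 6 and were already counted as WNT targets. CER1, which binds NODAL, BMP and WNT ligands, read 3.53, 2.87, 3.15 and 4.07 TPM on day 0 and 445, 398, 413.5 and 461 TPM on day 2 (6.54 ± 0.08 SE, adjusted p = 1.2e-10). DKK3 rose by 1.31 ± 0.10. SFRP1, a decoy receptor, read 469, 444, 455 and 465 TPM and then 45.9, 50.2, 53.5 and 54.1 TPM (-3.23 ± 0.05, adjusted p = 4.6e-10), and SFRP2 fell by 2.33 ± 0.11. DKK1, DKK4 and CER1 were thus low on day 0 where SFRP1 and SFRP2 were high, and the order was turned on day 2. The mean of DKK3 stayed below theirs on day 2, at 45.5 TPM against 50.9 TPM for SFRP1 and 70.6 TPM for SFRP2.

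Of 16 primitive streak and mesendoderm factors tested, 15 were called higher and 1 lower. The median log2 change was 5.23, or 6.60 with the 5 genes that had no day 0 reads set at their bound. Apart from MIXL1, SP8 and NKX1-2, the members reached 1 TPM in fewer than 3 day 0 wells. They passed the filter only with day 2 wells, so a fall could hardly be called for them. TBXT, the T-box factor brachyury, read 0.105, 0.168, 0 and 0 TPM on day 0 and 598, 575, 585 and 594 TPM on day 2, a read ratio of 8678 (2402 to 71664). MIXL1, a homeobox factor of the streak, read 1.74, 0.640, 1.53 and 1.24 TPM and then 693, 619.7, 605 and 656 TPM (8.10 ± 0.14 SE, adjusted p = 9.5e-10). EOMES, a T-box factor of anterior streak and endoderm, read 0.0744, 0.237, 0 and 0.172 TPM and then 309, 286, 282 and 287 TPM (7.98 ± 0.08, adjusted p = 3.6e-11). Days did not overlap for any of these, and the day 2 wells lay within a narrow band.

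The 5 factors that follow had no read on day 0 in any well. GSC, the organizer homeobox gene, read 118, 106, 110.5 and 112 TPM on day 2, at least 121-fold over the floor of 3 reads. MSGN1, a presomitic mesoderm factor, read 203, 189.1, 192 and 209 TPM, at least 233-fold. EVX1, CDX1 and CDX2, posterior homeobox genes, reached means of 39.96, 72.9 and 19.8 TPM, at least 115-fold, 118-fold and 82.1-fold over that floor. CDX4 rose less, by 1.45 ± 0.29, to 1.92 to 4.84 TPM. The single factor called lower was NKX1-2, which read 27.6, 28.3, 25.5 and 26.0 TPM on day 0 and 10.1, 20.6, 14.5 and 8.78 TPM on day 2 (-1.09 ± 0.23, adjusted p = 0.0030), a change of -0.98 without day 2 well 1 and -0.91 without day 2 well 4, neither called.

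**Figure D2:**
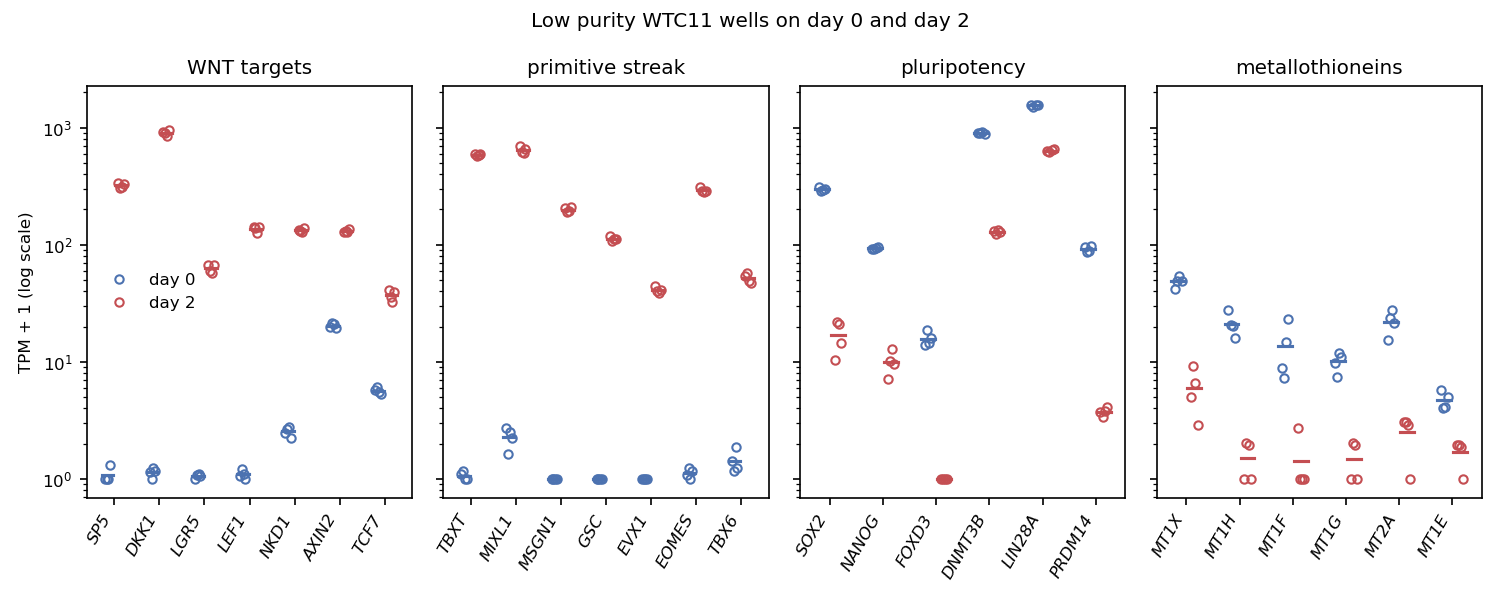
TPM + 1 on a log axis for named genes in 4 groups; each circle is 1 of 4 wells on day 0 (blue) or day 2 (red) and bars are means. TBXT goes from at most 0.168 to at least 575 TPM, SOX2 from at least 285 to at most 21.1 TPM, and MT1X from at least 41.1 to at most 8.13 TPM, with no overlap between days.

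Signals that pattern the streak changed member by member. NODAL, the ligand that specifies mesendoderm, read 26.8, 22.0, 24.3 and 21.8 TPM on day 0 and 112, 100.7, 111 and 114 TPM on day 2 (2.08 ± 0.06 SE, adjusted p = 1.8e-08). Over its pathway 5 of 15 members rose and 6 fell (median 0.20). TDGF1, the NODAL co-receptor, fell by 1.49 ± 0.03 from a mean of 1080 TPM, and the antagonists LEFTY1 and LEFTY2 fell by 1.98 ± 0.16 and 3.18 ± 0.11. CER1, another antagonist in this list, rose by 6.54. The transcriptional partner FOXH1 rose by 1.03 ± 0.06, close to the threshold (0.99 and not called without day 2 well 3), and the inhibitory SMAD7 fell by 1.88 ± 0.11.

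Of 17 BMP genes 9 were called higher and 1 lower (median 1.11). BMP5, MSX1, MSX2 and CHRD passed the filter only with day 2 wells, so a fall could hardly be called for them. BMP2 read 2.46, 3.06, 1.25 and 2.21 TPM on day 0 and 93.4, 87.3, 84.8 and 99.3 TPM on day 2 (4.79 ± 0.16 SE, adjusted p = 3.3e-08). BMP4 rose by 4.05 ± 0.17. MSX1, a homeobox target of BMP, went from a single detected 0.281 TPM to 194, 160.1, 166 and 192 TPM, a read ratio of 1972 (546 to 16290). ID1, an immediate BMP response gene, went the other way, from 32.9, 33.7, 35.4 and 37.5 TPM to 9.62, 8.99, 7.37 and 6.40 TPM (-2.07 ± 0.12). The other ID genes of the list did not fall and were not called. ID3 went from 46.9 to 62.5 TPM to 96.5 to 114 TPM, and ID2 from 16.7 to 25.4 TPM to 22.3 to 38.2 TPM. ID4 read 2.91 to 5.06 TPM and then 4.46 to 5.67 TPM. FST, a secreted antagonist of activin and BMP ligands, rose by 4.80 ± 0.08 to a mean of 251 TPM.

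Of 19 FGF pathway genes 3 were called higher and 4 lower, where 14.8% and 7.74% of all genes were. The median was -0.13 (0.00052 when values were rescaled without mitochondrially encoded RNAs and RN7SK). FGF1, FGF4, FGF10, FGF17 and FGF18 passed the filter only with day 2 wells, so a fall could hardly be called for them. FGF17 rose from a single detected 0.0693 TPM to 122, 102, 104 and 119 TPM. FGF4 read 1.46, 0.958, 1.55 and 0.695 TPM and then 36.9, 35.8, 37.6 and 40.4 TPM (4.11 ± 0.14 SE, adjusted p = 2.9e-08). FGF2, the ligand used to keep pluripotent cells undifferentiated, fell from 65.6, 57.5, 59.3 and 59.9 TPM to 14.8, 12.2, 12.0 and 12.4 TPM (-2.23 ± 0.07), and the receptor FGFR2 fell by 2.92 ± 0.08. FGF8, a ligand of the gastrulating embryo, was low throughout: 2.70, 2.34, 2.81 and 3.96 TPM on day 0 and 1.47, 1.85, 0.341 and 1.35 TPM on day 2 (-0.90 ± 0.24, not called).

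Segmentation clock genes appeared while the Notch list as a whole showed 3 called higher and 2 lower of 12 (median -0.24). DLL3 and HES7 passed the filter only with day 2 wells, so a fall could hardly be called for them. DLL3 read 1.14, 0.182, 0.373 and 1.45 TPM on day 0 and 100.4, 100.9, 87.9 and 100.9 TPM on day 2 (5.79 ± 0.22 SE). HES7, the oscillating repressor, went from no reads to 11.8 to 14.5 TPM, at least 42.3-fold, and LFNG, which modifies Notch receptors, rose by 2.73 ± 0.09.

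For retinoic acid, 5 of 11 handling genes rose and 1 fell (median 0.25). ALDH1A2, which makes retinoic acid, and CYP26A1, which degrades it, both rose, from at most 0.288 TPM to 37.2 to 44.2 TPM and from 1.10 to 1.40 TPM to 30.6 to 41.6 TPM. CRABP2, a retinoic acid binding protein, rose by 2.5 ± 0.04 to a mean of 611 TPM. DHRS3, a retinaldehyde reductase, read 27.4, 21.7, 25.5 and 24.4 TPM and then 2.11, 0.906, 1.11 and 1.11 TPM (-3.56 ± 0.15, adjusted p = 1.5e-07).

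All 8 HOX genes that passed the filter were called higher, and the other 18 of the list did not reach it. Of the 8, 6 had no day 0 reads, and HOXB1 and HOXD1 were below 1 TPM in every day 0 well. All 8 could thus pass only through day 2. HOX genes are known to open in sequence from the 3′ end of each cluster. HOXB2 read 17.7, 18.0, 18.0 and 14.3 TPM on day 2 (at least 26.1-fold) and HOXB4 27.0, 24.4, 15.7 and 29.3 TPM (at least 43.9-fold). HOXB1, with 1 detected value of 0.154 TPM on day 0, read 23.5, 21.0, 20.5 and 20.1 TPM. HOXB3 reached 8.37 to 10.6 TPM.

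Markers of several mesoderm and endoderm fates were called higher in the same wells. In these lists KDR, PDGFRA, SMARCD3, LFNG, TCF15, FOXA3 and CER1 reached 1 TPM in 3 or more day 0 wells. The other members tested passed the filter only with day 2 wells, so a fall could hardly be called for them. Among cardiac mesoderm markers 8 of 9 tested rose (median 3.91): PDGFRA read 1.71, 1.81, 1.81 and 1.31 TPM and then 43.4, 37.8, 40.4 and 41.7 TPM (3.91 ± 0.09 SE, adjusted p = 3.0e-09). GATA4 read 35.9, 29.9, 30.1 and 38.3 TPM on day 2 after at most 0.0826 TPM, GATA6 101.0, 88.8, 89.9 and 93.4 TPM after at most 0.0721 TPM, and HAND1 13.9 to 15.9 TPM after no reads. MESP1, the earliest cardiac mesoderm factor, stood at 7.16, 7.01, 5.05 and 4.86 TPM on day 2. KDR was the 1 tested member not called (52.4, 55.8, 50.7 and 51.3 TPM, then 59.9, 75.5, 81.2 and 64.8 TPM; 0.32 ± 0.10). HAND2, ISL1, TBX5 and NKX2-5 were below the filter.

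Paraxial mesoderm markers were called higher in 7 of 8 (median 5.47). FOXC1, a forkhead factor of paraxial and other mesoderm, went from no reads to 246, 231.5, 210.2 and 248 TPM, at least 848-fold, and TBX6, which sets paraxial fate, read 53.4, 55.9, 48.4 and 45.7 TPM after 0.168 to 0.864 TPM. Of 10 endoderm markers 8 rose (median 3.86). FOXA2, the node and endoderm forkhead factor, read 0.522, 0.995, 1.19 and 1.68 TPM and then 38.8, 42.7, 45.8 and 40.1 TPM (4.32 ± 0.17), CXCR4 rose to 56.6 to 65.7 TPM, and SOX17, the defining endoderm factor, reached 9.93, 8.75, 6.46 and 6.09 TPM after no reads. TBX6, MSGN1, MESP1, MESP2 and FOXA2 also stand in the streak list, and DLL3, HES7 and LFNG in the Notch list. GATA4, GATA6 and CXCR4 stand in 2 marker lists, so these counts are not independent.

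Other lineages gave no such shift. Of 5 neuroectoderm markers tested 4 fell (median -1.82), among them POU3F1 from 39.7, 29.6, 38.6 and 33.2 TPM to 0.977, 1.96, 2.59 and 1.15 TPM (-3.86 ± 0.20), while PAX6 and SOX1 were below the filter. SOX2 is also among the 4 and is counted again with the pluripotency factors. Cardiomyocyte markers were called higher in 3 and lower in 2 of 10; without day 0 well 1 the number called higher was 5. TNNT2, whose protein defines purity on day 16, read 6.69, 10.1, 8.05 and 6.29 TPM on day 0 and 0.793, 0, 1.71 and 0.972 TPM on day 2 (-2.36 ± 0.29). Of 5 endothelial and blood markers 2 fell, FLT1 by 2.73 ± 0.06, and PECAM1 and CDH5 were below the filter. Fibroblast and stromal markers divided, with COL1A2 up by 3.02 ± 0.08 and THY1 down by 3.19 ± 0.07 of 4 tested. Amnion markers gave 2 higher (CDX2 and HAND1, which mark other tissues too) and 2 lower of 6, and smooth muscle markers 0 higher and 1 lower of 6. Over all genes tested, 14.8% were called higher and 7.74% lower.

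Pluripotency factors fell as a group: 17 of 23 were called lower and 1 higher, with a median of -2.15. SOX2 read 312, 285, 290.0 and 298 TPM on day 0 and 9.28, 21.1, 20.2 and 13.5 TPM on day 2 (-4.27 ± 0.23 SE, adjusted p = 5.3e-07). NANOG read 91.6, 91.5, 92.7 and 94.3 TPM and then 6.15, 9.18, 12.0 and 8.55 TPM (-3.34 ± 0.16, adjusted p = 2.4e-07). Days were far apart in both genes, and the day 2 wells differed more among themselves than the day 0 wells. In bulk RNA, fewer cells of a type and less RNA per cell cannot be told apart. POU5F1, a defining factor of these cells, was listed at 0.157 to 0.484 TPM on day 0 and at 0 on day 2 and was not tested; beside the high levels of SOX2, NANOG and LIN28A in the same day 0 wells, these values may not reflect its expression, and whether reads shared with its near-identical copies were lost in counting was not tested.

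The extent of the fall varied. FOXD3 went from 13.0, 17.6, 13.5 and 14.9 TPM to no reads, at least 25.9-fold lower, and PRDM14, a zinc finger regulator of naive pluripotency, from 95.5, 86.0, 86.6 and 96.5 TPM to 2.71, 2.401, 2.81 and 3.08 TPM (-4.69 ± 0.06). DNMT3B, a de novo DNA methyltransferase, fell by 2.88 ± 0.03, USP44 by 3.37 ± 0.04, DPPA4 by 2.55 ± 0.06, MYC by 2.74 ± 0.08 and the lncRNA ESRG by 2.81 ± 0.11. ZFP42 fell by 1.73 ± 0.04 and LIN28A, which blocks let-7 maturation, by 1.37 ± 0.03, leaving 630.0, 613, 641 and 659 TPM.

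Genes of epithelial to mesenchymal transition were called higher in 11 and lower in 5 of 23 (median 0.42). CDH2, N-cadherin, read 38.1, 35.8, 33.7 and 35.4 TPM on day 0 and 830.1, 819, 818 and 838 TPM on day 2 (4.41 ± 0.03 SE, adjusted p = 5.1e-12). CDH1, E-cadherin, was not called: 159.9, 154, 155 and 151 TPM against 154, 163, 176 and 147 TPM, with overlapping wells. CDH11 rose by 5.52 ± 0.08, and the repressors of epithelial genes SNAI1, SNAI2, ZEB1 and ZEB2 by 3.55 ± 0.09, 4.27 ± 0.10, 3.14 ± 0.14 and 5.31 ± 0.07. VIM and FN1 rose by 2.36 ± 0.05 and 1.79 ± 0.04. On the epithelial side ESRP1, a splicing factor, fell by 1.83 ± 0.04 and CLDN6, a tight junction protein of pluripotent cells, by 1.53 ± 0.07. Of 17 integrins and laminins 4 were called higher and 1 lower, where 14.8% and 7.74% of all genes were. ITGA5 rose by 2.52 ± 0.07 and ITGA9 by 3.21 ± 0.06.

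Metallothioneins, small proteins that bind zinc and copper, fell: 7 of the 8 genes of that list were called lower and 0 higher (median -3.26, or -3.04 with MT1M at its bound). The promoters are shown because metal-responsive transcription factor 1 is known to act through short repeated elements there. They are the 250 bases before the RefSeq starts (GRCh38.p14, forward strand) of MT2A at chr16:56608334-56608583, MT1H at chr16:56669564-56669813 and MT1X at chr16:56682220-56682469, where capitals mark TGCACNC or TGCGCNC on either strand.
MT2A: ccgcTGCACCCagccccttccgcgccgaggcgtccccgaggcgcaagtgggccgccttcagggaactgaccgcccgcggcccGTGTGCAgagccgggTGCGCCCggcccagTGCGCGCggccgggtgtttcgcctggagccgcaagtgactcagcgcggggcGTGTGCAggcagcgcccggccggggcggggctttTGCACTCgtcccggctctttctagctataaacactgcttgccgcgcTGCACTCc
MT1H: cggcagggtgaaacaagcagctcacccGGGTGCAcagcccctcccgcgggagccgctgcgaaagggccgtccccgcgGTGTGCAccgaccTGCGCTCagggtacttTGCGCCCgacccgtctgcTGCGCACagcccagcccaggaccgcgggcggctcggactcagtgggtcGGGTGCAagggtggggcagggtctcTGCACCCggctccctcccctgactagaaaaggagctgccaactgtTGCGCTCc
MT1X: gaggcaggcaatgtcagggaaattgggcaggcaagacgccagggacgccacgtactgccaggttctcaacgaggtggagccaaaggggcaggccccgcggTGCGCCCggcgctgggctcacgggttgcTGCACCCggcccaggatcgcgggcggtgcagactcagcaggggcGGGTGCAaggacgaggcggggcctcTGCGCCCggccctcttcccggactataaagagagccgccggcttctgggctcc

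These windows held 7, 8 and 4 matches. The letters are common, with a match in 24.8% of all windows, 30.3% of those of tested genes and 29.8% of those of genes called lower; in the metallothionein list the windows of all 4 genes that have one held a match. MT1X read 41.1, 48.2, 52.9 and 48.2 TPM on day 0 and 4.05, 8.13, 5.62 and 1.86 TPM on day 2 (-3.23 ± 0.32 SE, adjusted p = 2.7e-05). MT2A read 14.3, 22.7, 26.6 and 20.4 TPM and then 2.04, 2.05, 1.89 and 0 TPM (-3.30 ± 0.37, adjusted p = 6.7e-05). MT1H read 26.8, 19.6, 19.1 and 15.03 TPM and then 0, 1.03, 0.954 and 0 TPM, a read ratio of 41.5 (11.2 to 348) for day 0 over day 2. Day 2 values rested on few reads, and reads of these near-identical genes could be split between copies, so the values of single members are uncertain. SLC30A1, the zinc exporter of the list, was not called, at 23.2, 21.4, 24.99 and 24.4 TPM and then 37.3, 36.4, 41.6 and 37.7 TPM (0.60 ± 0.06).

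Cholesterol synthesis genes went down by small amounts, 8 of 24 called lower and 0 higher with a median of -0.81; rescaling without mitochondrially encoded RNAs and RN7SK left 5 called lower. ACAT2 read 172, 188, 176 and 180.2 TPM and then 64.3, 61.3, 62.7 and 62.4 TPM (-1.58 ± 0.04 SE, adjusted p = 6.0e-09). DHCR7 and FDFT1 fell by 1.62 ± 0.08 and 1.48 ± 0.04, and HMGCS1, an early enzyme of the pathway, by 1.13 ± 0.03.

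Hypoxia and glycolysis genes were mixed, 6 of 27 called higher and 4 lower. PDK1, which diverts pyruvate from the mitochondrion, read 5.46, 5.80, 4.64 and 4.53 TPM and then 105, 105, 109 and 109 TPM (4.08 ± 0.07 SE), and BNIP3, a mitophagy receptor, rose by 3.37 ± 0.11. P4HA1 and PKM rose by 1.83 ± 0.11 and 1.26 ± 0.05. HK2 fell by 1.15 ± 0.13 and ADM by 2.00 ± 0.23. Of 15 p53 targets 7 rose and 0 fell (median 0.65), with CDKN1A, a cyclin kinase inhibitor, from 2.36 to 3.81 TPM to 29.9 to 38.4 TPM, BTG2 up by 3.94 ± 0.12 and GDF15 by 3.00 ± 0.17.

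Cell cycle genes fell in 9 and rose in 0 of 25 (median -0.81). MCM5, a subunit of the replicative helicase, read 145.0, 148, 152 and 155 TPM and then 46.6 to 52.6 TPM (-1.68 ± 0.04 SE, adjusted p = 8.0e-09), and CCNE1, cyclin E, fell by 1.48 ± 0.06. Amino acid stress genes were called lower in 3 and higher in 0 of 16, where 7.74% and 14.8% of all genes were. The transporter SLC7A5 fell by 1.69 ± 0.06. Among 7 DNA methylation and demethylation enzymes DNMT3A fell by 1.48 ± 0.03 beside DNMT3B, and TET2 alone rose, from 1.81 to 2.15 TPM to 8.07 to 9.48 TPM (1.61 ± 0.09).

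Some of the steepest changes lay outside these lists. APLNR, the apelin receptor of migrating mesoderm, rose from 0.199 ± 0.060 TPM (SD, n = 4) to 449.7 ± 26.4 TPM (log2 change 8.51 ± 0.06 SE), while its ligand gene APELA fell from 24.9 ± 1.2 to 0.687 ± 0.584 TPM (-4.05 ± 0.21). COLEC12, a scavenger receptor, rose by 7.04 ± 0.11. On the log2(TPM + 1) scale, though not as a ratio of TPM, the largest fall among protein-coding genes with at least 10 TPM on day 0 was that of IDO1, which degrades tryptophan, from 63.3 ± 2.7 to 0.490 ± 0.342 TPM (-5.51 ± 0.15, adjusted p = 1.0e-08). TRIML2, PCDH1, GDPD2, PPP2R2B, KLHDC7A and METTL7A fell by 4.81, 4.49, 4.30, 4.22, 4.08 and 4.01 on the same scale.

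Among protein-coding genes called without overlap, GJA1, the gap junction protein connexin 43, gained most TPM, from 904 ± 14.6 (SD, n = 4) to 2328 ± 119 TPM, followed by FABP5, a fatty acid carrier, from 223 ± 6.3 to 1289 ± 32.1 TPM, then DKK4, DKK1 and CDH2. HSPA8, the constitutive heat shock chaperone, lost most in that class, from 3313 ± 87.4 to 1239 ± 16.5 TPM. CD24, a surface glycoprotein, fell from 2384 ± 60.3 to 576 ± 15.4 TPM and L1TD1, an RNA-binding protein of pluripotent cells, from 1562 ± 111 to 210.5 ± 11.9 TPM. PTMA fell from 2211 ± 20.8 to 1099 ± 40.8 TPM. These 4 losses and that of LIN28A amounted to log2 changes of -1.50, -2.13, -2.97, -1.09 and -1.37.

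Set against the high purity differentiation, the change differed for 838 of 20685 genes (4.05%) in a test of the difference itself, with 434 (2.1%) changing more positively in low purity and 404 (1.95%) more negatively. Of the 19318 genes tested in low purity, 4.16% were called in that difference, 2.22% positively and 1.94% negatively. Of the 4351 called in low purity, 554 were also called in the difference, and both tests use the low purity wells. Where both changes of a gene are given below, they come from the fit over all 16 wells, whose joint scaling moves low purity values slightly. Among those that rose, 318 rose more than in high purity and 71 less. Of those that fell, 151 fell further than in high purity, or fell where it did not, and 14 fell less. The libraries of the classes also stood apart: mitochondrially encoded RNAs took 23.3% to 24.0% of TPM in low and 15.7% to 17.9% in high purity on day 0, and 20.6% to 22.6% and 13.8% to 16.5% on day 2. Ribosomal protein genes took 7.89% to 8.35% in low and 8.69% to 8.89% in high purity on day 0, and 8.96% to 9.50% and 11.6% to 12.5% on day 2. Recovered reads in high purity were 11507316 to 18143597 on day 0 and 9964769 to 14718686 on day 2, and the part of these gaps in the differences was not tested.

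Of 16 streak factors 3 changed more negatively in low purity and 0 more positively. These were FOXA2, CDX4 and NKX1-2, at -1.31 ± 0.35 SE, -1.20 ± 0.38 and -1.38 ± 0.38. CDX4 and FOXA2 were not called by edgeR on the recovered reads (adjusted p = 0.46 and 0.054), and CDX4 was not called in 9 of the 16 fits that left out 1 well (-1.20 to -0.96). Among members not called, the difference was -0.36 ± 0.12 for TBXT, -0.12 ± 0.12 for EOMES and 0.08 ± 0.18 for MIXL1. The WNT targets SP5 and AXIN2, at -0.37 ± 0.16 and -0.25 ± 0.08, were not called either.

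**Figure D3:**
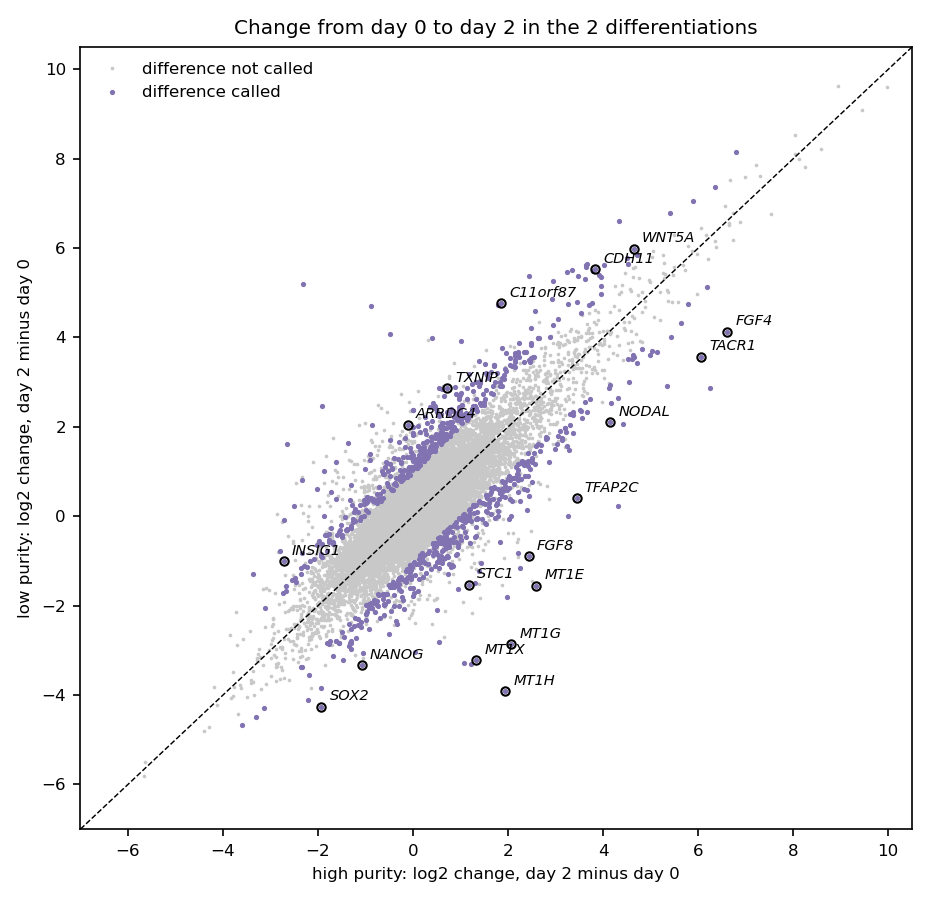
Each point is 1 gene, with the log2 change from day 0 to day 2 in high purity on the x axis and in low purity on the y axis; purple points were called different and the dashed line is equality. Metallothioneins other than MT1M, which fell in both, lie far below the line with changes of opposite sign, as MT1X at -3.21 in low and 1.33 in high purity. TXNIP and C11orf87 lie above the line.

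Metallothioneins other than MT1M gave the most negative differences among named genes, and all 8 genes of the list were called, SLC30A1 included. MT1X, which fell in low purity, read 75.8 to 90.8 TPM on day 0 and 171 to 237 TPM on day 2 in high purity (difference -4.54 ± 0.36 SE, adjusted p = 1.2e-06). MT1H went from 30.7 to 58.0 TPM to 142 to 191 TPM in high purity (difference -5.86 ± 0.36), and MT2A from 14.8 to 27.5 TPM to 38.1 to 50.7 TPM (-4.36 ± 0.44). The log2 change of SLC30A1 was 0.62 in low and 1.87 in high purity, and that of MT1M -4.12 and -2.22.

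The fall of pluripotency genes went further in low purity for 4 of 23. SOX2 ended day 2 at 64.5 to 79.8 TPM in high purity, above every low purity well (difference -2.33 ± 0.26 SE, adjusted p = 1.9e-05), and NANOG at 44.4 to 48.8 TPM (-2.24 ± 0.18, adjusted p = 1.1e-06). PRDM14 and ESRG differed by -1.08 ± 0.22 and -1.50 ± 0.13, PRDM14 by -0.94 and not called without high purity day 2 well 4. POU3F1 had a log2 change of -3.85 against -1.94. ESRP1 had one of -1.82 in low and -0.23 in high purity (difference -1.58 ± 0.07). CDH1, not called in low purity, read 158 to 182 TPM on day 0 and 328 to 454 TPM on day 2 in high purity (difference -1.21 ± 0.13).

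Signals differed as well. NODAL reached 238 to 327 TPM in high purity against 100.7 to 114 TPM here (difference -2.06 ± 0.15 SE, adjusted p = 6.0e-07). FGF4 reached 112 to 162 TPM in high purity (-2.47 ± 0.21), and FGF8 read 0.974 to 2.32 TPM on day 0 and 8.42 to 15.7 TPM on day 2 there (-3.32 ± 0.34). FGF19 had a log2 change of -1.09 in low and 0.83 in high purity. On the other side WNT5A reached 37.1 to 65.2 TPM in high purity against 122 to 139 TPM here (1.35 ± 0.22), and LGR5, BMP2, DKK3 and MSX1 also changed more positively here, by 1.14 ± 0.20, 1.34 ± 0.27, 1.55 ± 0.12 and 1.01 ± 0.17. LGR5 and MSX1 were not called by edgeR on the recovered reads (adjusted p = 0.63 and 0.62), with 3 and 2 day 0 reads over the 4 low purity wells.

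Of 23 genes of epithelial to mesenchymal transition 3 changed more positively and 4 more negatively in low purity, and of 9 HOX genes 3 more positively and 0 more negatively. CDH11 read 169.8 to 206 TPM here and 56.6 to 94.4 TPM in high purity on day 2 (1.70 ± 0.20 SE, adjusted p = 2.9e-05), and SNAI2, ZEB1 and ITGA9 differed by 1.33 ± 0.28, 1.25 ± 0.19 and 1.59 ± 0.17. HOXB4 reached 2.401 to 8.57 TPM in high purity against 15.7 to 29.3 TPM here (2.03 ± 0.39), and HOXB3 differed by 1.28 ± 0.18. With no day 0 reads in either class, HOXB4 was not called by edgeR (adjusted p = 1). By contrast KDR, an early marker of cardiovascular mesoderm, read 48.8 to 50.9 TPM on day 0 and 193 to 226 TPM on day 2 in high purity (-1.75 ± 0.12, adjusted p = 3.5e-07), and TFAP2C 0.894 to 2.55 TPM and 19.6 to 31.0 TPM (-3.04 ± 0.35).

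Of 24 cholesterol genes 7 changed more positively here than in high purity and 1 more negatively. INSIG1 read 56.5 to 59.1 TPM on day 0 and 26.2 to 32.0 TPM on day 2 in low purity, against 94.5 to 111 TPM and 12.8 to 16.7 TPM in high purity (1.72 ± 0.12 SE, adjusted p = 3.5e-07). HMGCS1 differed by 1.18 ± 0.09. TXNIP, an inhibitor of thioredoxin and glucose uptake, reached 38.9 to 48.1 TPM here and 9.19 to 19.6 TPM in high purity (2.15 ± 0.25), and its relative ARRDC4 had a log2 change of 2.05 here and -0.12 there. That of HK2, hexokinase, was -1.13 here and 0.79 in high purity, and that of VEGFA 0.90 and 2.35. The most positive difference among named genes was that of C11orf87, from 0.299 to 0.570 TPM to 32.2 to 43.1 TPM here and to 2.90 to 5.60 TPM in high purity (2.91 ± 0.22). NTS, neurotensin, reached 528 to 644 TPM here and 123 to 224 TPM in high purity.

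The later days give the levels of these genes after day 2 in the low purity differentiation (4 wells a day, 3 on day 16), without a test. Streak genes were brief: the mean of TBXT was 588 TPM on day 2 and 3.19 on day 4, that of MIXL1 643 and 4.04 and that of MSGN1 198 and 0.286. WNT feedback genes followed, SP5 at 7.26 TPM and DKK1 at 2.41 TPM on day 4, whereas LEF1 stood at 108 TPM on day 4 and 29.9 TPM on day 16. EOMES was at 12.9 TPM on day 4, against 107 TPM in high purity, and NODAL at 66.0 TPM, against 11.3 TPM.

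Some genes that rose by day 2 had higher means later and others did not. Mean HAND1 was 14.7 TPM on day 2, 367 on day 4 and 859 on day 6, when the high purity mean was 74.9 TPM, and PDGFRA stood at 452 TPM on day 4. HAND2, at 0 on day 2, stood at 70.6 TPM on day 4. HOXB4 was at 24.1 TPM on day 2, 58.3 on day 4 and 106 on day 16, when high purity stood at 40.7 TPM. COL1A2, at 177 TPM on day 2, was at 1237 TPM on day 16, and CDH2, at 826 TPM on day 2, stayed between 420.7 and 654 TPM from day 4. MESP1 was at 6.02 TPM on day 2 and 0.271 TPM on day 4. SOX2 and NANOG were at 6.08 and 0.557 TPM on day 4, and MT1X was at 0 in all 4 wells that day.

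**Figure D4:**
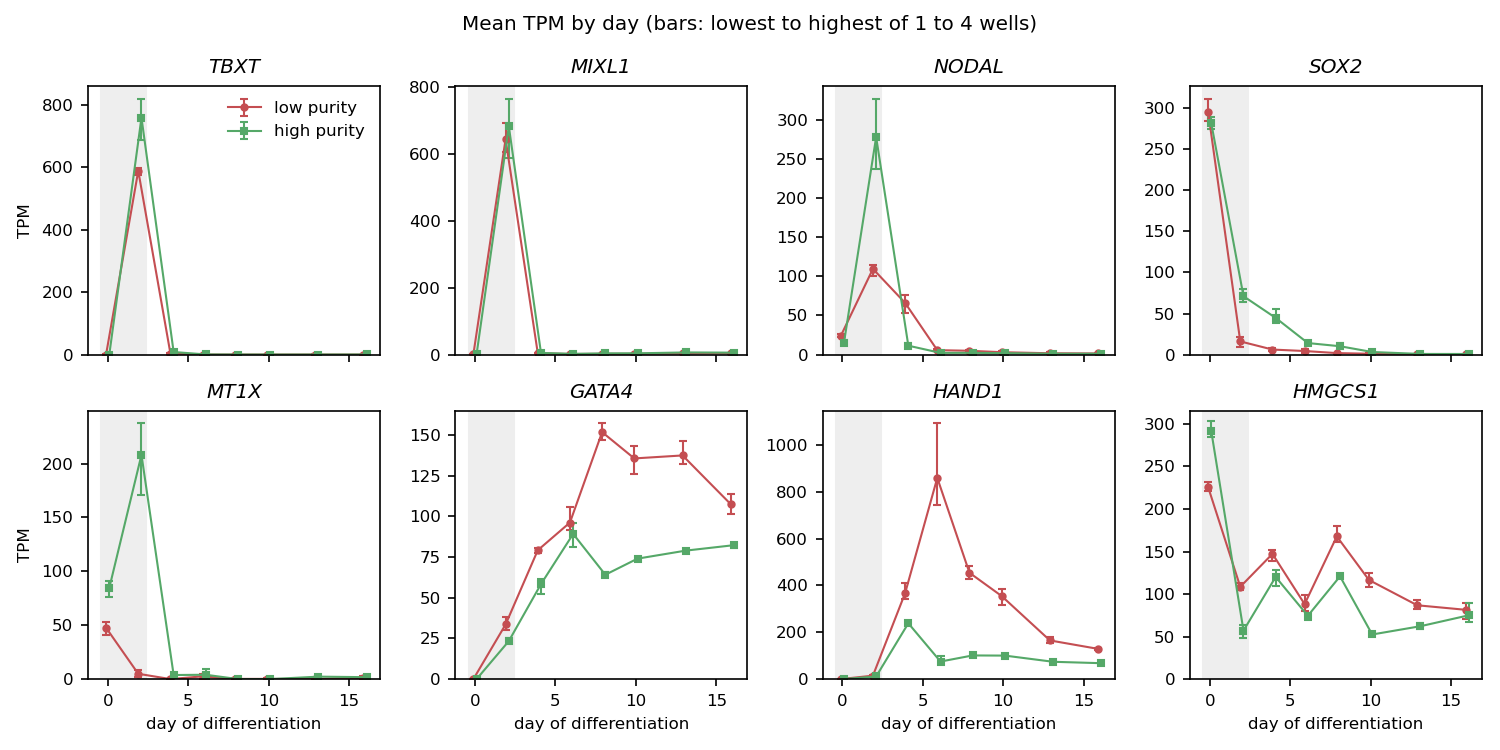
Mean TPM by day of differentiation for 8 genes in low purity (red) and high purity (green), with bars from the lowest to the highest well and days 0 to 2 shaded. TBXT and MIXL1 are high on day 2 alone among the sampled days, NODAL on day 2 is 109 TPM in low and 278 TPM in high purity, and HAND1 peaks on day 6 at 859 TPM in low purity.

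A second experiment of the series sequenced total RNA from 6 differentiations, 1 library a step. These were WTC11 low (passage 69) and high (passage 81), and both classes of H9 embryonic stem cells and IMR90-4 induced pluripotent cells. The second step was day 2 in WTC11 and day 3 in H9 and IMR90-4, so WTC11 differs from the other lines in day as well. Line and day cannot be told apart there. The experiment has no replicates, so its values carry no test. The labels do not say whether the WTC11 passage 69 samples of both experiments share a differentiation. Of the genes called higher here and measured there, 86.0% were also higher at the second step in WTC11 low and 94.4% in WTC11 high, where 38.6% and 41.3% of all genes were. In H9 and IMR90-4 the share was 65.9% to 81.9%, where 36.9% to 44.1% of all genes were higher. Of the genes called lower, 94.3% and 97.6% were lower in WTC11 and 85.7% to 92.3% in the other lines, where 53.9% to 61.1% of all genes were. In all 6 differentiations at once, 43.7% of the genes called higher were higher and 73.9% of those called lower were lower, against 13.0% and 29.5% of all genes.

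Streak genes were higher in WTC11 there as well: the change on the log2(TPM + 1) scale was 6.57 in low and 7.70 in high purity for TBXT and 7.28 and 7.92 for MIXL1. For NODAL it was 2.55 and 2.75 in WTC11, on day 2, and -2.22 (low) and -2.39 (high) in IMR90-4, on day 3. FOXD3 gave -3.65 to -3.97 in all 6. The order of low and high purity seen above was turned for several genes. SOX2 gave -0.73 in WTC11 low and -3.15 in WTC11 high, NANOG -0.60 and -2.22, MT1X 0.91 and -3.22 and MT2A -1.63 and -5.34. In H9 and IMR90-4, on day 3, MT1X gave -5.89 to -6.93. HMGCS1 gave -3.11 and -3.13 in WTC11 low and high, and TXNIP 0.03 and 1.94. Of the 434 genes with the more positive change in low purity above, 24.7% had it in this WTC11 pair, where 48.3% of all genes did. Of 403 with the more negative change 51.6% did, against 51.2% of all genes. In the H9 pair these shares were 42.4% and 57.3%, against 39.2% and 59.2% of all genes. In the IMR90-4 pair they were 49.3% and 30.5%, against 49.7% and 49.1%.

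**Figure D5:**
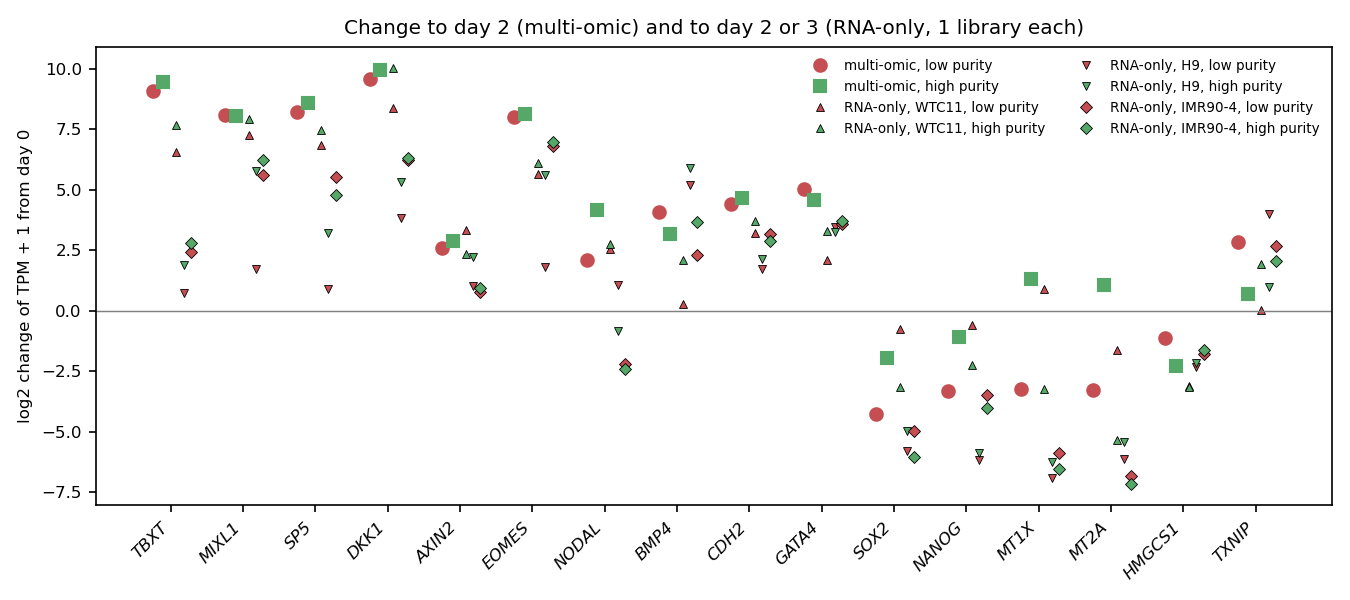
Log2 change of TPM + 1 from day 0 for 16 genes: large symbols are the multi-omic differentiations (means of 4 wells) and small symbols single total RNA libraries of 6 differentiations, red for low and green for high purity. TBXT, MIXL1, SP5 and DKK1 lie above 0 in all 8, and for SOX2, NANOG, MT1X and MT2A the WTC11 pair of small triangles has the low purity library above the high one, the reverse of the large symbols.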

How the data were processed

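RNA was extracted with Trizol and sequenced as stranded poly(A) libraries from 8 WTC11 wells of low purity (4 on day 0, 4 on day 2); the high purity wells, the later days and the total RNA libraries were used for comparison. TPM was computed by the authors and deposited per well, per the file headers. The submitters' processing notes name STAR 2.5.3a, featureCounts 2.0.3 and hg38. The deposited count table of the multi-omic wells was not used for tests, since its column names are misplaced against the TPM. Gene lengths solved from the count and TPM columns that the authors deposited for the total RNA libraries turned the TPM values into reads, all whole within 0.05, for 37194 genes.

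Values were scaled with TMM factors, 1 TPM was added, and log2 values were tested with limma 3.58.1 (trend, R 4.3.3) over 2 group means without a block, with Benjamini-Hochberg adjustment over all genes tested, calling at adjusted p 0.05 and a log2 change of 1. The difference from high purity was a contrast over 16 wells. The alternatives used edgeR 4.0.16 and DESeq2 1.42.0 on the recovered reads. Bounds take 3 reads per library as the floor, and intervals (95%, exact) cover counting error only. Steps were tested on simulated data. Same-numbered wells of the 2 days correlated at -0.097 to 0.058, so numbers did not pair them. Promoters are RefSeq windows of GRCh38.p14.

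Named beyond the lists are protein-coding genes called with no overlap: the 12 largest rises and falls with 10 TPM or more, the 5 largest TPM gains and losses, and the 6 most positive and most negative differences from high purity. The members and lists were chosen with earlier results of these data known. Some genes counted in the lists are not reported here by name.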

Additional observations from a re-analysis of the deposited data

Results flagged for a closer look

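Among 271 sets of 4 wells examined (1 named gene on 1 day, with a median of 1 TPM or more), 12 held a well whose gap to the nearest other was above Dixon's critical share of the whole range. Chance does this in about 1 of 20 sets. On day 0 these were SFRP2 at 355 TPM in well 3 (others 329 to 332), LEFTY1 at 39.2 TPM in well 2 (29.3 to 30.8), MYC at 27.5 TPM in well 3 (31.0 to 31.1) and KLHDC7A at 20.1 TPM in well 2 (16.1 to 16.7). On day 2, well 3 stood apart for DLL3 at 87.9 TPM (others 100.4 to 100.9), CRABP2 at 581 TPM (618.6 to 625.1), ZFP42 at 38.5 TPM (41.9 to 42.4), PKM at 804.8 TPM (850.2 to 855) and VEGFA at 76.4 TPM (50.5 to 54.5). The remaining day 2 cases were FGF2 at 14.8 TPM in well 1 (12.0 to 12.4), HOXB2 at 14.3 TPM in well 4 (17.7 to 18.0) and MT2A at 0 TPM in well 4 (1.89 to 2.05).

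The change from day 0 to day 2 differed between low and high purity, by limma's test of the difference over 16 wells, for 66 named genes, 27 with the more positive and 39 with the more negative change in low purity. All values here are low minus high on the log2 scale. In the signalling lists the differences were 1.14 for LGR5, 1.35 for WNT5A, -1.05 for WNT5B, 1.55 for DKK3, -2.06 for NODAL, -1.04 for LEFTY1, 1.34 for BMP2, 1.01 for MSX1 and -1.30 for ID2. The FGF ligands FGF4, FGF8, FGF18 and FGF19 gave -2.47, -3.32, -1.49 and -1.91, and DHRS3 gave -1.36. Among transcription and cell identity genes, FOXA2 gave -1.31, CDX4 -1.20, NKX1-2 -1.38, HOXB3 1.28, HOXB4 2.03, SOX2 -2.33, NANOG -2.24, PRDM14 -1.08, ESRG -1.50, POU3F1 -1.91 and TFAP2C -3.04. KDR gave -1.75 and RYR2 -1.43.

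Adhesion genes gave 1.33 for SNAI2, 1.25 for ZEB1, -1.21 for CDH1, 1.70 for CDH11, -1.58 for ESRP1 and 1.59 for ITGA9. The cholesterol genes ACAT2, HMGCS1, INSIG1, IDI1, SQLE and MSMO1 gave 1.11, 1.18, 1.72, 1.28, 1.05 and 1.21, while 1 member of that list changed more negatively. Of 27 hypoxia and glycolysis genes tested in the difference, 5 were called, against 1.95% of all genes on the negative side and 2.1% on the positive. All 5 were negative: HK2 at -1.92, ENO2 at -1.18, SLC2A3 at -1.05, VEGFA at -1.44 and ADM at -1.36. The metallothioneins MT1E, MT1F, MT1G, MT1H, MT1M, MT1X and MT2A gave -4.14, -4.52, -4.93, -5.86, -1.90, -4.54 and -4.36, and SLC30A1 gave -1.25. The cell cycle genes CCNE1 and E2F1 gave 1.01 and 1.25, and UHRF1, of the DNA methylation list, gave 1.19.

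Outside the lists, COLEC12 gave 1.18, PCDH1 -1.17 and GDPD2 -1.15. The most positive values chosen for size were 2.91 for C11orf87, 2.27 for DEFA6, 2.23 for NTS, 2.17 for ARRDC4, 2.15 for TXNIP and 2.09 for IZUMO1R, and negative ones outside the metallothioneins were -2.70 for STC1 and -2.49 for TACR1. DEFA6 and IZUMO1R were at 0 TPM in all day 0 wells of both classes, and edgeR on the recovered reads did not call them (adjusted p = 1 for both).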

How the results depend on the processing

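No named change or named difference turned its direction under any alternative. Raising the filter to 5 TPM gave 2768 called genes (1798 higher, 970 lower) with fewer genes tested, and dropping the fold threshold gave 12516 (6630 and 5886). Other settings gave 4344 to 5635 calls, the most with edgeR on recovered reads (4262 of the 4351 kept); DESeq2 gave 5372 and a pseudocount of 0.1 gave 5510. Scaling without mitochondrially encoded genes and RN7SK moved the median of all genes from 0.062 to 0.195 and gave 3726 higher and 1381 lower. Without TMM factors the list medians were 0.28 for NODAL, 1.19 for BMP, -0.052 for FGF, -0.16 for Notch (1 called lower), 0.15 for integrins, -0.73 for cholesterol, -0.58 for amino acid stress, -0.73 for cell cycle, -0.51 for DNA methylation and 3.97 for cardiac mesoderm. For the difference from high purity, scaling without those RNAs gave 1061 genes, 700 on the positive side (66.0% against 51.8%), no TMM gave 63.3% on that side, the 5 TPM filter 265 positive and 318 negative, and no fold threshold 5221 (2617 and 2604). EdgeR called 1006 (423 positive, 583 negative) and DESeq2 936 (422 and 514), of which 541 and 494 were among the 838. The side with more calls, 434 positive against 404 negative, thus turned with both tools and the 5 TPM filter, and also with all genes above 0 (376 and 403), all 56 wells (419 and 423) and without low purity day 2 well 3 (448 and 454). The cause of these shifts was not tested.

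Leaving out each well in turn gave 4318 to 4411 calls (2817 to 2923 higher, 1486 to 1513 lower) and 739 to 902 differences (389 to 466 positive, 349 to 454 negative). With well number as a block, for numbers that did not pair the wells (correlations 0.051, 0.058, -0.097 and 0.021), 4368 genes (2858 and 1510) and 807 differences (420 and 387) were called; of the named ones LEFTY1 lost its difference. Of 151 named changes, 5 lost the call somewhere: INSIG1 (-0.96 without day 2 well 3, -0.99 without day 2 well 4), NKX1-2 (-0.98 without day 2 well 1, -0.91 without day 2 well 4), FOXH1 (0.99 without day 2 well 3), and HMGCS1 and PTMA only under scaling without those RNAs. Of 66 named differences, MSX1 (0.92 to 0.998), CDX4 (-1.20 to -0.96), CCNE1 (0.89 to 1.00) and LEFTY1 (-0.95 to -0.84) lost it without 1 of several wells, high purity day 2 wells 2 and 3 among them for all 4. SQLE lost it without high purity day 2 well 3 (0.99), PRDM14 without high purity day 2 well 4 (-0.94) and GDPD2 without low purity day 2 well 4 (-0.98). The calls of WNT5B, LGR5, FOXA2, HOXB4, COLEC12, DEFA6, IZUMO1R and SLC2A3 were lost under other tools, pseudocounts or scalings. Low counts limit precision for genes with 10 reads or fewer in every well.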
